A study of Mus musculus with 22 samples.

Results

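In CD11b+Ly6Chi lung monocytes, transcripts of the zinc importer Slc39a14 and of the metallothionein Mt1 were 5.34-fold and 4.31-fold higher 14 d after induction of mutant surfactant protein C than in control cells. In SigF+CD11b- alveolar macrophages at the same time, the importer Slc39a10 was 3.19-fold lower and the importer Slc39a8 was 3.21-fold higher. These genes belong to a set of 10 that was chosen by name and not by level. The set held the metallothioneins Mt1 and Mt2, their regulator Mtf1, the exporters Slc30a1, Slc30a5 and Slc30a7, and the importers Slc39a1, Slc39a8, Slc39a10 and Slc39a14. All 10 were among the 31116 genes that the monocyte table of 55421 genes and the macrophage table of 31134 genes both list. All 10 also passed the filter on low counts in each cell type.

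Metallothioneins are small cysteine-rich proteins that bind zinc and copper in the cytosol. When free zinc rises, the transcription factor MTF-1, encoded by Mtf1, binds metal response elements in DNA and switches on Mt1, Mt2 and the exporter gene Slc30a1. Transporters of the SLC30 (ZnT) family move zinc out of the cytosol, to the outside or into organelles, and those of the SLC39 (ZIP) family bring it in. Macrophages are known to change their zinc handling during inflammation and infection.

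The study sorted cells from collagenase-digested lungs of adult C57BL/6 mice, of both sexes according to the methods, that all carried the SP-CI73T allele of surfactant protein C, a protein of the alveolar epithelium. One oral dose of tamoxifen activated an estrogen receptor-controlled Flp-O recombinase placed in the Rosa26 locus, which removed a neomycin cassette and increased expression of the mutant protein. Monocytes were taken from 4 control samples, 4 samples at 3 d and 4 at 14 d, and macrophages from 4 control samples, 3 at 3 d and 3 at 14 d. The labels call the controls untreated, while the methods describe controls as tamoxifen-treated mice without the recombinase pooled with oil-treated mice that had it. For the monocyte sequencing, the paper's results and a figure legend name the controls as oil-treated mutant mice only. The control samples therefore carry the mutant allele too. The treatment of each control sample is not given, and whether any control macrophages came from tamoxifen-treated mice is not stated. Nothing states that each sample came from a separate animal, and the p-values measure the spread between these samples only.

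Total counts ran from 15451460 to 28789639 in monocytes and from 4610720 to 17074863 in macrophages, where the 3 samples at 14 d were the shallowest, with at most 6838893. A count of 3, taken as the floor of detection, equalled 0.104 to 0.194 CPM (a sample's read counts scaled to a common total) in monocytes and up to 0.651 CPM in macrophages at 14 d. Every sample at 14 d, in both cell types, carried the Y-linked transcript Ddx3y at 32.3 CPM or more and Xist at 4.98 CPM or less, while no control or 3 d sample exceeded 0.187 CPM of Ddx3y. Sex and time after induction therefore cannot be told apart at 14 d. The sorted identities held in part: Ly6c2, a defining monocyte gene, was between 1199 and 4165 CPM in the monocytes and at most 7.65 CPM in the macrophages. The alveolar macrophage gene Siglecf was between 111 and 326 CPM in the macrophages, against 25.2 CPM or less in the monocytes. The macrophage samples at 14 d also carried markers of other cells: 5 of 5 fibroblast genes lay above the control range, with summed levels of 175 to 425 CPM against 14.5 to 20.7 CPM. In the same samples 4 of 4 eosinophil genes (32.9 to 137 against 0.595 to 1.73 CPM) and 4 of 5 neutrophil genes (460 to 1717 against 10.6 to 19.7 CPM) lay above the control range. So did 4 of 4 endothelial genes (39.2 to 52.2 against 7.07 to 14.9 CPM) and 3 of 5 monocyte genes (535 to 650 against 296 to 350 CPM). Of 6 markers of interstitial or monocyte-derived macrophages, 5 lay above it and 1 below (1489 to 2242 against 1407 to 1703 CPM). Of 7 alveolar macrophage markers, 5 lay below it (2971 to 3666 against 5282 to 6024 CPM). The monocyte sort is described as gating out alveolar macrophages, eosinophils, Ly6G+ neutrophils and CD3+ lymphocytes, and the macrophage label gives a CD11b- gate. None of these marker genes was at 0 in all 3 samples. Their part in the macrophage results at 14 d was not tested, and fewer cells of a type cannot be told apart from less RNA per cell.

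Because MTF-1 reads a short DNA motif, the sequences just upstream of its best known target genes among the 10 are shown. The metal response element core was searched as TGCACNC or TGCGCNC on both strands, in windows from 250 bases before to 50 after each RefSeq start (GRCm38.p6). At least 1 match was found in 25.9% of 32544 windows, at least 2 in 7.17%, at least 3 in 1.985% and at least 4 in 0.522%. Of the 10 genes, 9 had a window. The Mt2 window held 4 matches, the Mt1 window 3, the Slc30a1 window 2 and the Slc30a5 window 1, and 1 of the pair of Slc39a8 windows held 1. The windows of Mtf1, Slc30a7, Slc39a1 and Slc39a10 held none of these letters. The parts upstream of both the RefSeq start and the annotated gene follow, with matches in capitals: Mt1 at chr8:94178839-94179081, Mt2 at chr8:94172368-94172617 and Slc30a1 at chr1:191906531-191906766, all on the plus strand. In this order they hold 1, 3 and 1 of the matches counted above, and the other matches reach past the cut. The Mt2 part stops at the RefSeq start, short of the annotated gene start at 94172664. A match is a run of letters and does not show binding.
Mt1: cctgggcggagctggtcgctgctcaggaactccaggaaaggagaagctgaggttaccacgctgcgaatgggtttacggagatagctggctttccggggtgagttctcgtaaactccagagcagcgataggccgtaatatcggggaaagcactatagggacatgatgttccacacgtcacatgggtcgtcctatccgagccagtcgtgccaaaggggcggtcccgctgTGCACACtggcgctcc
Mt2: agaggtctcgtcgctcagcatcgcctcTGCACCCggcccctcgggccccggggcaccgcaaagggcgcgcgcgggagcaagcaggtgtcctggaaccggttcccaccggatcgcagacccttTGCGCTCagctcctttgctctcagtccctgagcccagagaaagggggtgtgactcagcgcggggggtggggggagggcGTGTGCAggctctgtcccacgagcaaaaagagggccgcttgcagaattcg
Slc30a1: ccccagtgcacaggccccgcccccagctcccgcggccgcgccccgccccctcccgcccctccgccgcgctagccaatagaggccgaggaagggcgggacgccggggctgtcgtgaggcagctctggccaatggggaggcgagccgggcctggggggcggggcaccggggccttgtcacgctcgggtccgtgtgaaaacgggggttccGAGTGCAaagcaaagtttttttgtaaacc

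The plot of levels by sample gives CPM on library sizes scaled by trimmed mean of M values (TMM) within each cell type. Per kilobase of exon, Mt1 was the most abundant member in control monocytes, at 61.4 CPM per kb, and in control macrophages, at 245 CPM per kb. Its exonic length of 1246 bases includes transcripts that keep introns, so this level per kb is a low estimate for the spliced transcript. Slc39a1 was the most abundant of the transporters in control macrophages, at 77.7 CPM per kb, and Slc39a8 was lowest, at 0.339 CPM per kb.

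**Figure D1:**
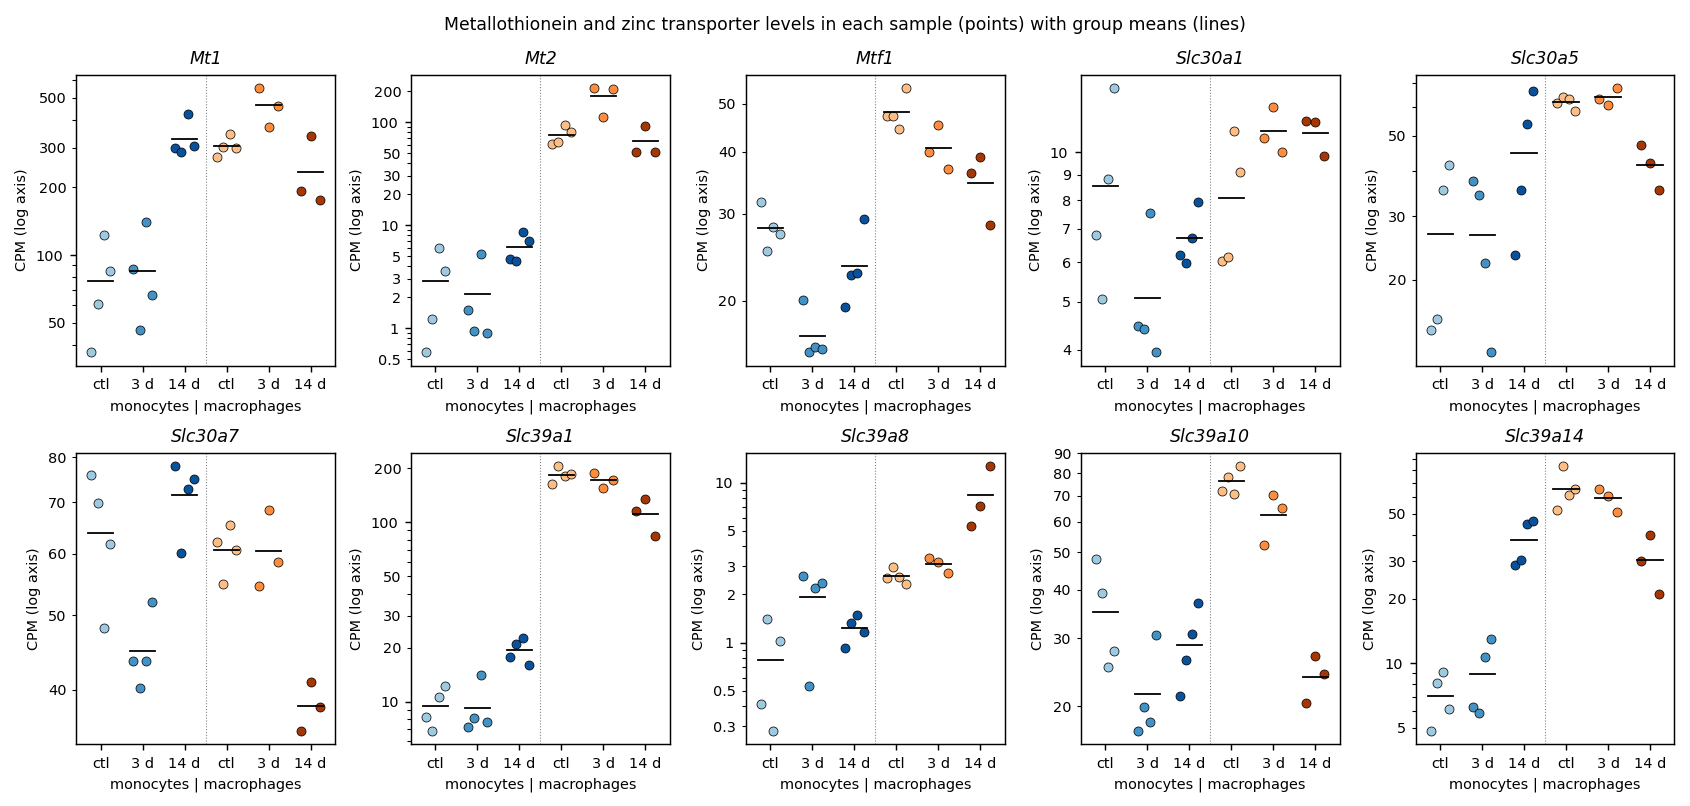
Level of each of the 10 genes in CPM (log axis) in every sample (points) with group means (lines), for control (ctl), 3 d and 14 d samples of monocytes (blue) and macrophages (orange), each cell type scaled on its own. Mt1, Slc39a1 and Slc39a14 lie above the control range in all 4 monocyte samples at 14 d, while Slc39a10 lies below it and Slc39a8 above it in all 3 macrophage samples at 14 d.

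Mt1 (ENSMUSG00000031765) is the main metallothionein of most mouse tissues together with Mt2. In control monocytes Mt1 was at 36.9, 60.3, 123 and 85.4 CPM, and at 3 d it was at 86.9, 46.5, 140 and 66.5 CPM. At 14 d it was at 300.3, 289, 423 and 307 CPM. The 14 d samples all lay above every control and 3 d sample, and the control and 3 d samples overlapped. The log2 fold change at 14 d was 2.11 ± 0.37 (SE, adjusted p = 0.00234, edgeR quasi-likelihood test, n = 4 against 4), and against 3 d it was 1.96 ± 0.37 (adjusted p = 0.00193). At 3 d against control it was 0.15 ± 0.35 (adjusted p = 0.739) and did not pass the test. The rise at 14 d was called under every scaling, filter and tool tried and without each sample in turn (log2 fold changes of 1.88 to 2.77). In monocytes at 14 d the complement gene C1qa, a marker of interstitial or monocyte-derived macrophages, was at 113 to 284 CPM against 1.93 to 11.2 CPM in the controls, and 4 of the 6 markers on that list lay above the control range and 1 below it, with summed levels of 3357 to 9554 CPM against 3154 to 6896 CPM. Of 5 neutrophil markers 2 lay above it, with summed levels of 121 to 601 CPM against 12 to 136 CPM. Below it lay 2 of 5 T and NK cell markers (9.57 to 15.6 against 112 to 513 CPM), 3 of 4 B cell markers (20.6 to 47.8 against 63.5 to 89.8 CPM) and 2 of 5 monocyte markers (5025 to 7676 against 6578 to 10405 CPM). Of 7 alveolar macrophage markers 1 lay above it and none below. The part of such cells in the Mt1 and Slc39a14 values was not tested.

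Over all genes tested, 8.56% were called at 14 d in monocytes at an adjusted p under 0.05 and a fold above 1.5, and 3.22% were called higher. Of the 10 genes 3 were called, all higher: Mt1, Slc39a1 and Slc39a14. At 3 d against control, 3 of the 10 were called, all lower, while 51.2% of all genes were called and 14.4% were called lower. They were Mtf1, Slc30a1 and Slc39a10, and under each of the 3 other scalings none of the 10 was called lower and Slc39a8 and Slc39a14 were called higher. Under those scalings 41.5% to 44.2% of all genes were called higher and 1.96% to 3.05% lower. The monocyte samples at 3 d had counts for 40119 to 41134 genes, against 24775 to 30865 in the controls. Of 6 markers of interstitial or monocyte-derived macrophages 2 lay below the control range (summed levels of 909 to 1409 against 3154 to 6896 CPM). Of 5 fibroblast markers 3 lay above it (15.8 to 19 against 2.71 to 9.9 CPM), as did 1 of 5 neutrophil markers (59.8 to 1182 against 12 to 136 CPM). Their part in the 3 d results was not tested. At 14 d against 3 d, 4 of the 10 were called, all higher, against 46.5% of all genes called and 12% called higher. The last comparison shares its 14 d samples with the first and its 3 d samples with the second.

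Mt2 (ENSMUSG00000031762), the neighbour of Mt1 on chromosome 8, was counted far less often than Mt1 in monocytes. Its counts were 14, 23, 149 and 88 in the controls, 37, 21, 97 and 19 at 3 d, and 100, 90, 161 and 174 at 14 d. Control replicates 3 and 4 and 3 d replicate 3 stood well above their groups. The difference at 14 d, a log2 fold change of 1.11 ± 0.66, did not pass the test (adjusted p = 0.357). Among the controls, replicates 3 and 4 also had the most alveolar macrophage and natural killer cell transcripts, with Siglecf at 25.2 and 17.9 CPM and Nkg7 at 398 and 341 CPM, against at most 3.36 and 123 CPM in the other controls. Their summed levels of the 7 alveolar macrophage markers were 1164 and 1328 CPM, against 502 and 543 CPM. The 3 d replicate with the most Mt2 had the most Siglecf of its group, 7.9 CPM. At 14 d Siglecf was 2.12 to 4.83 CPM, but the summed level of the 7 markers was 701 to 1364 CPM, which spanned the values of control replicates 3 and 4. Without control replicates 3 and 4, an alternative chosen after seeing the data, the Mt2 difference was 2.78 and was called (adjusted p = 0.0302, against 0.357 with all samples), while that of Mt1 was 2.77 (adjusted p = 0.00201). The part of those cells in the control values was not tested.

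The Mt2 counts of the macrophages cannot be set beside those of the monocytes. Of the 588 exonic bases of Mt2, 432 lie in Gm45774, a gene annotated on the opposite strand (ENSMUSG00000110588). In the macrophage table the counts of Gm45774 were 0.889 to 1.03 times those of Mt2 in every sample, whereas in the monocyte table Gm45774 had 0 to 18 counts and Mt2 14 to 174. Of 477 genes whose every exonic base is shared with a gene on the other strand, 99% had no count in any monocyte sample and 51.4% had none, or were not listed, in the macrophage table. Among genes that share no exonic base, 11.4% had none in the monocytes and 49.6% had none or were not listed in the macrophages. Reads from Mt2 and Gm45774 cannot be told apart in the macrophage table, and Mt2 is compared within a table only. Mt1, Slc30a5, Slc39a1, Slc39a8, Slc39a10 and Slc39a14 share no exonic base with another gene. The overlap covers 8.09% of Mtf1, 8.92% of Slc30a1 and 16% of Slc30a7.

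**Figure D2:**
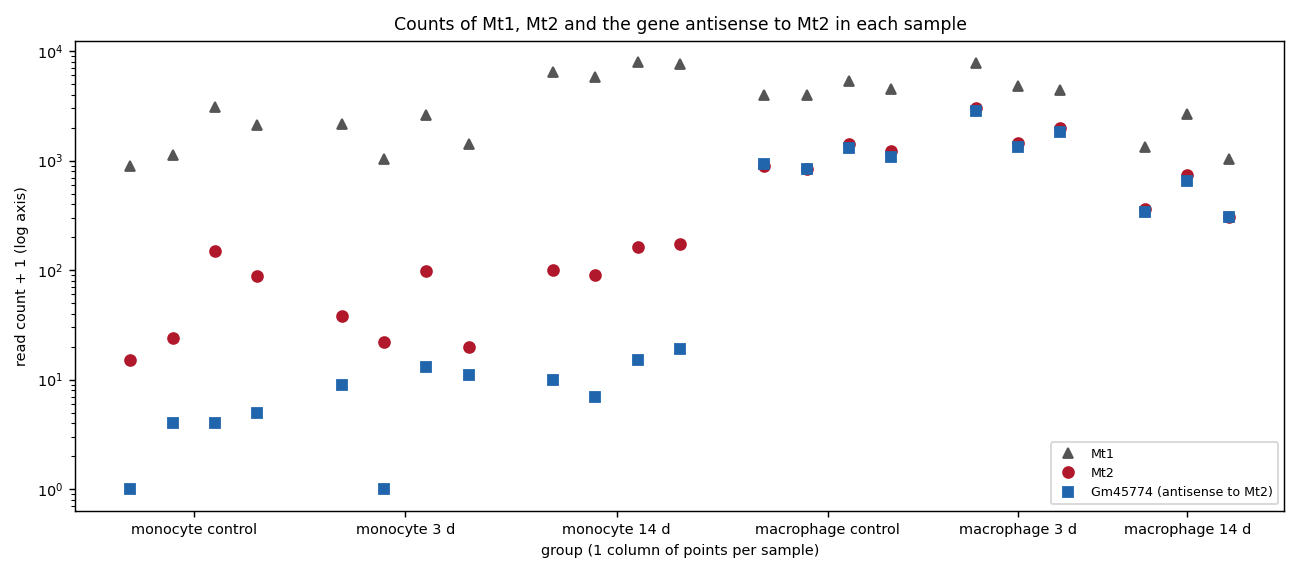
Read counts plus 1 (log axis) of Mt1 (triangles), Mt2 (circles) and Gm45774, annotated antisense to Mt2 (squares), with 1 column of points per sample in the 6 groups. Gm45774 tracks Mt2 at 0.889 to 1.03 times its count in the 10 macrophage samples and stays at 18 counts or fewer in the 12 monocyte samples.

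In macrophages the metallothioneins were highest at 3 d. Mt2 was at 61.6, 63.9, 93.5 and 80.6 CPM in the controls, at 216, 112 and 209 CPM at 3 d, and at 51.7, 92.4 and 51.2 CPM at 14 d. All 3 samples at 3 d lay above every control, and the 14 d samples overlapped the controls. The rise at 3 d was 1.25 ± 0.25 on the log2 scale (adjusted p = 0.0321, n = 3 against 4). It was the only 1 of the 10 genes called in a comparison where 1.27% of all genes were called and 1.05% were called higher. The call was lost when any of 5 of the 7 samples was left out (adjusted p up to 0.203), with control replicate 3 and 3 d replicate 2 the exceptions, and it was lost with no filter on low counts (adjusted p = 0.0544). The fold itself stayed between 1.11 and 1.54 on the log2 scale without each sample. Mt1 was at 274, 301, 346 and 298 CPM in the controls, at 555, 373 and 462 CPM at 3 d and at 192, 337 and 175 CPM at 14 d. Its 3 d samples too lay above every control, but the difference of 0.60 ± 0.20 did not pass the test (adjusted p = 0.169). With DESeq2 it was called (0.65, adjusted p = 0.0405), and over all the alternatives for this gene the call otherwise changed only without 3 d replicate 2 (0.78, adjusted p = 0.0291).

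From 3 d to 14 d both metallothioneins fell in macrophages, Mt2 by 1.45 ± 0.28 and Mt1 by 0.98 ± 0.22 on the log2 scale (adjusted p = 0.00098 and 0.00174). The Mt2 call held under every alternative, while the Mt1 fall was 0.56 by library size and 0.51 with TMM on the highly counted genes and then did not pass the fold. Against control at 14 d neither was called, with log2 fold changes of -0.20 ± 0.26 for Mt2 and -0.38 ± 0.21 for Mt1 under TMM, which were 0.15 to 0.34 for Mt2 and -0.03 to 0.16 for Mt1 under the other scalings. Without 14 d replicate 2, its highest sample, Mt1 was called lower (-0.76, adjusted p = 0.00145, against 0.0988 to 0.289 without any other sample). With no filter on low counts and all samples kept, Mt1 was also called lower (-0.587, adjusted p = 0.0105). The airway gene Scgb1a1 was also higher in the macrophage samples at 3 d, at 303 to 591 CPM against 13.8 to 63.3 CPM in the controls, and 2 of 3 airway markers lay above the control range. So did 4 of 4 B cell markers, with summed levels of 158 to 474 CPM against 48.5 to 133 CPM, and 2 of 5 neutrophil markers (25.8 to 64.6 against 10.6 to 19.7 CPM). Of 5 monocyte markers 2 did (303 to 405 against 296 to 350 CPM). The part of such cells in the metallothionein values was not tested.

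The way libraries are scaled bears on every comparison with the monocytes at 3 d or the macrophages at 14 d. In both groups many rarely counted genes were higher. Under TMM the median log2 fold change of genes with a mean log2 CPM above 5 was -0.55 in monocytes at 3 d and -0.56 in macrophages at 14 d, while that of all genes was 0.22 and 0.18. Under scaling by the upper quartile, by library size or by TMM on the genes above log2 CPM 5, the median of all genes was 0.62 to 0.74 and 0.53 to 0.73. In monocytes at 14 d the highly counted genes had a median of -0.08 under TMM, and in macrophages at 3 d it was -0.06. The split of all calls moved with it, from 36.8% higher and 14.4% lower in monocytes at 3 d under TMM to 41.5% and 3.05% under the upper quartile. In macrophages at 14 d it moved from 39.4% higher and 22.9% lower to 44.8% and 10.6%.

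**Figure D3:**
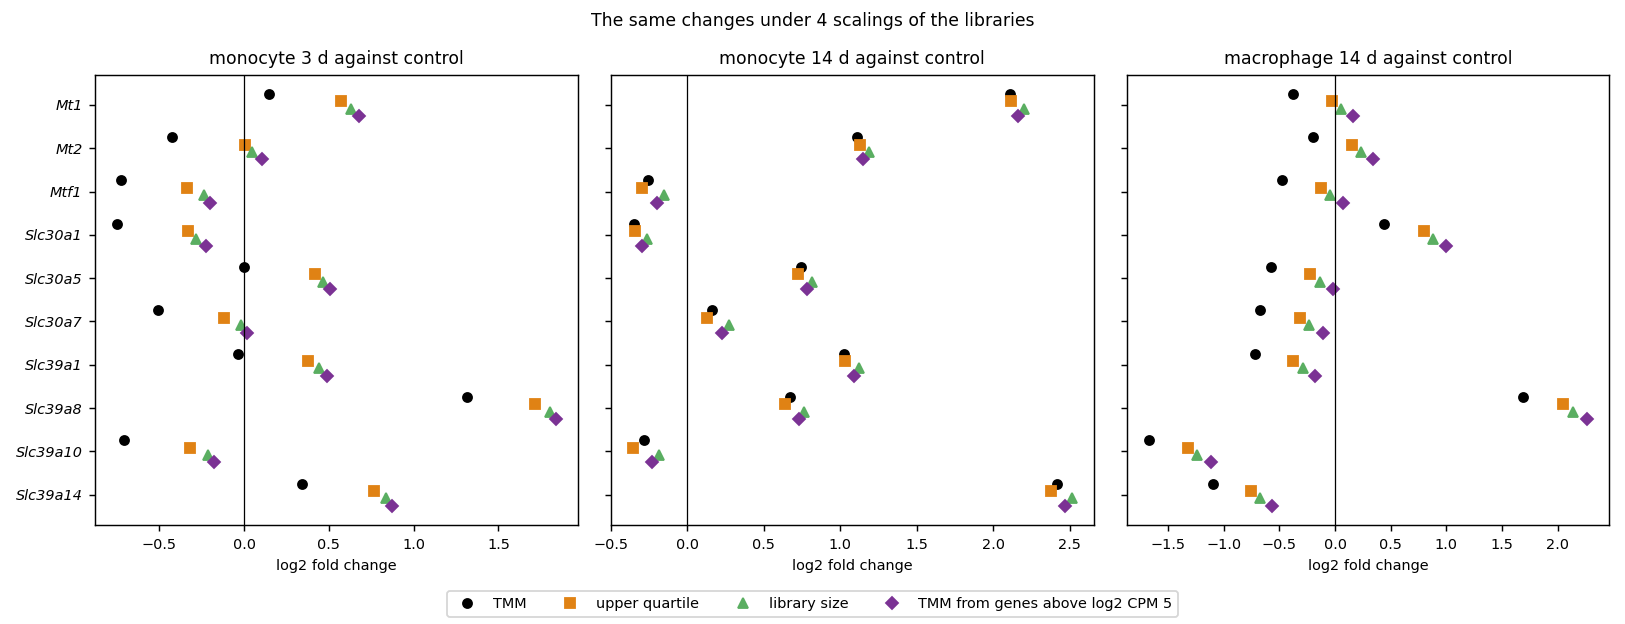
Log2 fold change of each gene against control (horizontal axis) under TMM (circles), upper quartile (squares), library size (triangles) and TMM on genes with a mean log2 CPM above 5 (diamonds). In monocytes at 14 d the 4 scalings lie close together, while in monocytes at 3 d and macrophages at 14 d TMM gives the lowest value for all 10 genes.

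Mtf1, the zinc-sensing transcription factor, was measured at 25.2 to 31.7 CPM in control monocytes, 15.7 to 20.1 CPM at 3 d and 19.4 to 29.3 CPM at 14 d. It fell by 0.73 ± 0.17 on the log2 scale at 3 d under TMM (adjusted p = 0.00319), with no overlap between the groups, but under the other scalings the difference was -0.33 to -0.20 and was not called. At 14 d its log2 fold change was -0.26 ± 0.16 in monocytes (adjusted p = 0.396). In macrophages Mtf1 was at 44.4 to 53.9 CPM in the controls, 36.9 to 45.3 CPM at 3 d and 28.4 to 39.1 CPM at 14 d. The fold at 14 d did not exceed 1.5 (-0.48 ± 0.15, adjusted p = 0.00908), and this value was -0.12 to 0.07 under the other scalings. Mtf1 was called lower there with no filter on low counts (-0.68, adjusted p = 0.000624) and without 14 d replicate 2 (-0.60, adjusted p = 0.00497). Mtf1 was not called higher than control in monocytes at 14 d, where Mt1 rose, or in macrophages at 3 d, where Mt2 rose (-0.24 ± 0.14, adjusted p = 0.475).

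Slc30a1 encodes ZnT1, the exporter of the plasma membrane and a known MTF-1 target, and its upstream sequence is given above. It was at 5.06 to 13.5 CPM in control monocytes, 3.95 to 7.52 CPM at 3 d and 5.97 to 7.94 CPM at 14 d. The 14 d difference was -0.35 ± 0.30 on the log2 scale (adjusted p = 0.546), while Mt1 rose in the same samples. At 3 d Slc30a1 was called lower under TMM (-0.75 ± 0.30, adjusted p = 0.0482), and it was not called under any other scaling (-0.33 to -0.23), without control replicates 3 and 4 (-0.29), or without control replicate 3 or 4 or 3 d replicate 1, 2 or 4 alone (adjusted p = 0.065 to 0.216). In macrophages it was at 6.03 to 11 CPM in the controls, 10 to 12.3 CPM at 3 d and 9.81 to 11.5 CPM at 14 d. Under TMM the 14 d difference of 0.44 ± 0.24 was not called (adjusted p = 0.115), but it was called higher under the 3 other scalings, at 0.80 to 0.99, and with DESeq2 (0.61, adjusted p = 0.0254).

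Slc30a5 and Slc30a7 encode ZnT5 and ZnT7, which load zinc into the secretory pathway. Slc30a5 varied widely between monocyte samples, from 14.5 to 41.4 CPM in the controls, 12.6 to 37.5 CPM at 3 d and 23.4 to 66.4 CPM at 14 d, and it was not called in any monocyte comparison. Slc30a7 was at 48 to 75.8 CPM in the controls, 40.3 to 51.9 CPM at 3 d and 60.2 to 77.9 CPM at 14 d. At 3 d against control its log2 fold change was -0.51 ± 0.16 (adjusted p = 0.0158), a fold under 1.5, and -0.12 to 0.02 under the other scalings. It was called lower there with no filter on low counts (-0.77, adjusted p = 0.00259), without control replicate 3, alone or with replicate 4, and without 3 d replicate 4. Its difference at 14 d against 3 d, 0.67 ± 0.16 on the log2 scale (adjusted p = 0.00522), was not called under the other scalings (0.21 to 0.29) or, for its fold, without 3 d replicate 2 or 3 (0.58 in both cases). In macrophages Slc30a5 was at 58.4 to 63.9 CPM in the controls and 35.3 to 47.1 CPM at 14 d, and Slc30a7 was at 54.8 to 65.3 CPM and 35.4 to 41 CPM. Both groups of 14 d values lay below the controls. Slc30a7 fell by 0.67 ± 0.13 (adjusted p = 0.000497) and the Slc30a5 fold stayed under 1.5 (-0.57 ± 0.13, adjusted p = 0.00137). Under the other scalings these were -0.31 to -0.11 for Slc30a7, which was then not called, and -0.22 to -0.02 for Slc30a5, whose fold passed 1.5 without control replicate 4 (-0.66), 14 d replicate 1 (-0.71) or 14 d replicate 2 (-0.61). With no filter on low counts Slc30a5 was also called lower (-0.77, adjusted p = 8.17e-05). Against 3 d, Slc30a5 and Slc30a7 fell by 0.62 and 0.66 (adjusted p = 0.00172 and 0.00125), and neither was called under another scaling (-0.36 to -0.14).

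Among the importers, Slc39a14 (ENSMUSG00000022094) showed the largest change in monocytes. It encodes ZIP14, which carries zinc, non-transferrin-bound iron and manganese and is known to be induced by inflammatory cytokines. Slc39a14 was at 4.85, 8.07, 9.13 and 6.14 CPM in control monocytes and at 6.26, 5.84, 10.8 and 12.9 CPM at 3 d. At 14 d it was at 28.9, 30.5, 44.6 and 46.5 CPM. The 4 samples at 14 d all lay above every other monocyte sample. The log2 fold change was 2.42 ± 0.30 against control (adjusted p = 0.000153) and 2.07 ± 0.29 against 3 d (adjusted p = 0.000601), and both were called under every alternative, with 2.27 to 2.57 against control. At 3 d against control it was 0.34 ± 0.29 (adjusted p = 0.325), but it was called higher under the 3 other scalings (0.77 to 0.87).

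In macrophages Slc39a14 went the other way. It was at 51.9, 83.6, 61.5 and 65.2 CPM in the controls, at 65.6, 60.8 and 51.1 CPM at 3 d and at 30.2, 39.9 and 21.1 CPM at 14 d. The 3 d samples overlapped the controls and the 14 d samples lay below both. It fell by 1.10 ± 0.21 on the log2 scale at 14 d (adjusted p = 0.000298), a fold of 2.14. Under the other scalings the fall was 0.56 to 0.75, and with TMM on the highly counted genes it no longer passed the fold (-0.56, adjusted p = 0.0149, against adjusted p of 8.67e-05 to 0.0016 without each sample in turn).

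Slc39a1 encodes ZIP1, a widely expressed importer of the plasma membrane. It was at 8.25, 6.88, 10.6 and 12.2 CPM in control monocytes, at 7.19, 8.13, 14 and 7.72 CPM at 3 d and at 17.6, 21.1, 22.5 and 16 CPM at 14 d. The 14 d samples lay above all others. The rise against control was 1.03 ± 0.25 on the log2 scale (adjusted p = 0.0181), a fold of 2.04, and it was lost without control replicate 1 or 2 or without 14 d replicate 2 or 3 (adjusted p up to 0.0678). Against 3 d it was 1.06 ± 0.25 (adjusted p = 0.00492), and with TMM on the highly counted genes it was not called (0.60, adjusted p = 0.0764). In macrophages it was at 162 to 205 CPM in the controls, 155 to 188 CPM at 3 d and 83.7 to 134 CPM at 14 d. There it fell by 0.72 ± 0.16 at 14 d (adjusted p = 0.00104) under TMM, and under the other scalings the difference was -0.37 to -0.18 and was not called.

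Slc39a10, which encodes the plasma membrane importer ZIP10, showed the largest fall of the 10 genes in macrophages. It was at 72, 78.5, 70.9 and 83.5 CPM in the controls, at 52.2, 70.4 and 65 CPM at 3 d, and at 20.5, 27 and 24.2 CPM at 14 d. Every 14 d sample lay below every other macrophage sample. The log2 fold change was -1.67 ± 0.15 (adjusted p = 1.13e-06), and under the other scalings it was -1.32 to -1.12 and remained past both thresholds. It was called lower under all alternatives and without each sample. In monocytes Slc39a10 was at 25.3 to 48.2 CPM in the controls, 17.3 to 30.5 CPM at 3 d and 21.2 to 36.9 CPM at 14 d. There it was called lower at 3 d under TMM (-0.71 ± 0.25, adjusted p = 0.027), and under no other scaling (-0.32 to -0.18), and the call was lost without control replicate 1 or without 3 d replicate 1, 2 or 3 (adjusted p = 0.0676 to 0.119).

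Slc39a8, which encodes ZIP8, a carrier of zinc and manganese known as an NF-kB target in myeloid cells, was the least abundant member. In macrophages its counts were 37, 39, 39 and 35 in the controls, 47, 41 and 26 at 3 d, and 37, 57 and 75 at 14 d, when the libraries were shallower. These equalled 2.53, 2.96, 2.56 and 2.32 CPM, then 3.37, 3.18 and 2.71 CPM, and then 5.33, 7.18 and 12.7 CPM. The 14 d samples lay above all others and spread over more than the earlier groups. The rise at 14 d was 1.68 ± 0.31 on the log2 scale (adjusted p = 0.000278) and 2.05 to 2.27 under the other scalings, and it was called under every alternative. In monocytes Slc39a8 had 7 to 64 counts a sample, and the 3 d difference of 1.31 ± 0.57 was not called (adjusted p = 0.0619) but was called under the 3 other scalings (1.72 to 1.84) and with DESeq2 (1.45, adjusted p = 0.0238).

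**Figure D4:**
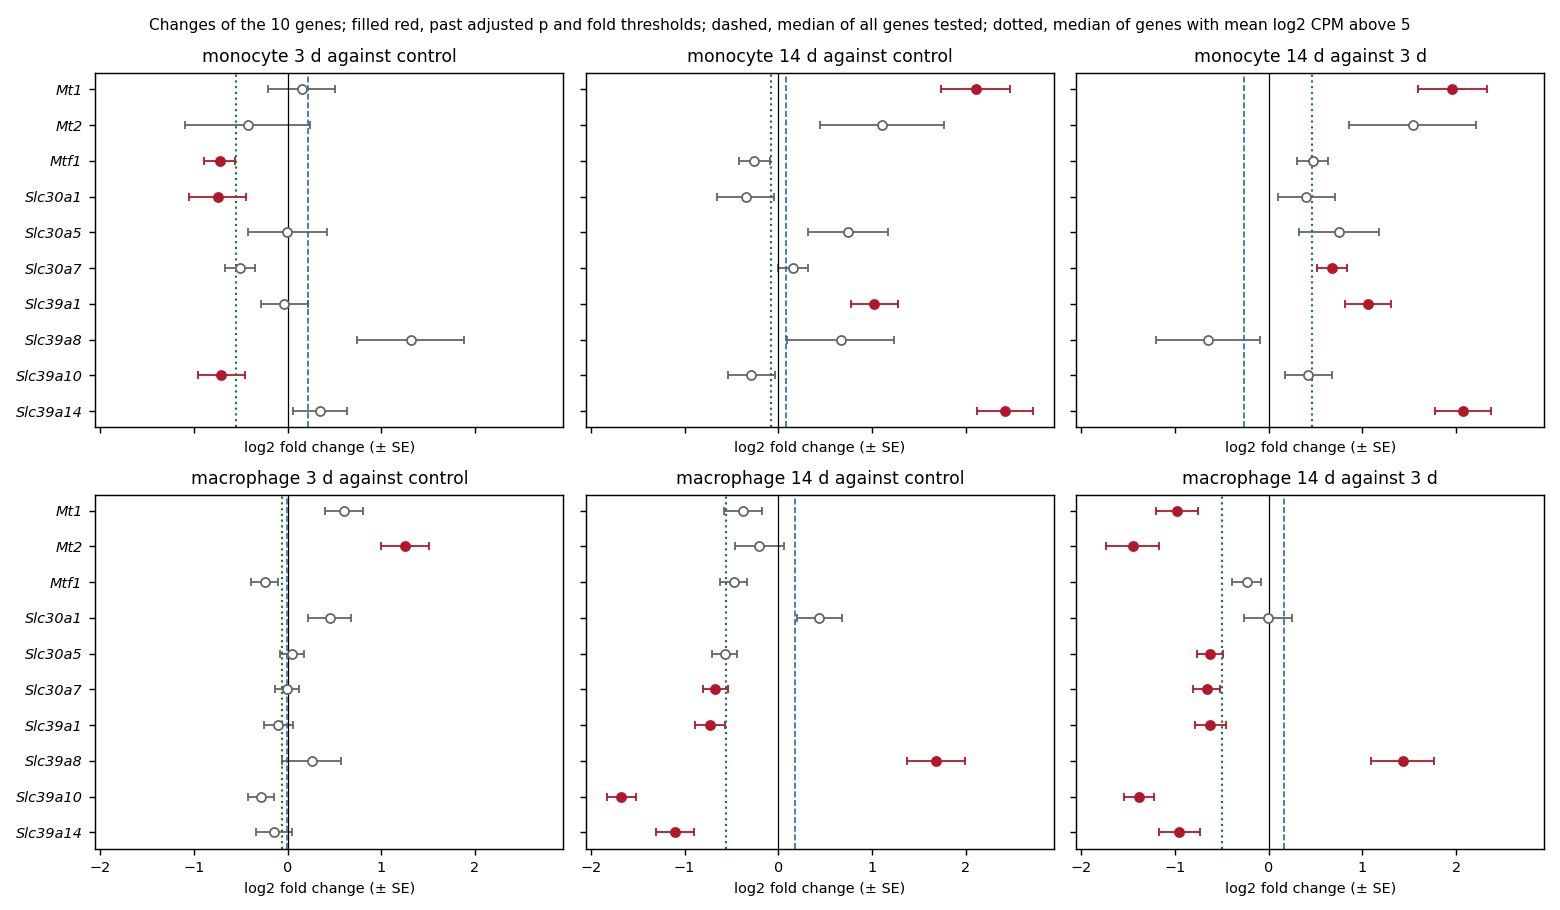
Log2 fold change with its standard error (horizontal axis) of the 10 genes in the 6 comparisons within a cell type under TMM. Filled red points passed both thresholds, the dashed line is the median of all genes tested and the dotted line the median of genes with a mean log2 CPM above 5, which stands at -0.55 in monocytes at 3 d and -0.56 in macrophages at 14 d, close to several of the genes called lower there.

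In macrophages at 14 d, 5 of the 10 genes were called against control, 4 lower and 1 higher, while 62.3% of all genes were called. Over all genes, 39.4% were called higher and 22.9% lower. Against 3 d, 8 of the 10 were called, 7 lower and 1 higher, where 56.4% of all genes were called, 36.3% higher and 20% lower. Under the upper quartile 5 were called against 3 d, with Mt1, Mt2, Slc39a10 and Slc39a14 lower and Slc39a8 higher. There 50.7% of all genes were called, 41.3% higher and 9.42% lower. By library size or with TMM on the highly counted genes 3 were called, with Mt2 and Slc39a10 lower and Slc39a8 higher. Of all genes, 44.1% and 45.9% were then called higher and 6.29% and 5.36% lower. Of the 4 lower calls against control, Slc39a10 was called under all 4 scalings, Slc39a14 under 3, and Slc30a7 and Slc39a1 under TMM alone.

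The 14 d change was then compared between the cell types in a single fit of all 22 samples, as the macrophage change minus the monocyte change. It differed for 6 of the 10 genes, all in the direction of a lower macrophage change, where 36.8% of all genes were called and 19.9% were called lower. The difference was -3.87 ± 0.38 on the log2 scale for Slc39a14 (adjusted p = 2.59e-07) and -2.84 ± 0.48 for Mt1 (adjusted p = 0.000167). It was -2.09 ± 0.30 for Slc39a1 and -1.73 ± 0.31 for Slc39a10. These 4 were called under every scaling, at -3.20 to -3.09 for Slc39a14, -2.20 to -2.05 for Mt1, -1.45 to -1.32 for Slc39a1 and -1.06 to -0.94 for Slc39a10. The differences of Slc30a5 (-1.65 ± 0.51) and Slc30a7 (-1.18 ± 0.23) were called under TMM and under no other scaling, while the difference of Slc30a1, 0.44 ± 0.41 under TMM, was called higher under the 3 others (1.09 to 1.24). At 3 d the change differed for none of the 10 genes by edgeR, where 18.7% of all genes were called, 3.51% higher and 15.2% lower. Slc30a1 alone had an unadjusted p under 0.05 (adjusted p = 0.08 by edgeR), and DESeq2 called it (1.06, adjusted p = 0.0332).

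Control macrophages and control monocytes were compared in the same fit, although the 2 tables treat overlapping genes differently. Of the 9 genes other than Mt2, 5 were called, all higher in macrophages, where 44.2% of all genes were called and 24.5% were called higher. Slc39a1 was higher by 3.90 ± 0.22 on the log2 scale, Slc39a14 by 2.85 ± 0.27 and Mt1 by 1.63 ± 0.32 (adjusted p = 1.64e-13, 1.48e-09 and 0.000231), and all 3 were called under every alternative. Slc39a8 (1.37 ± 0.47) and Slc39a10 (0.75 ± 0.21) were called but lost under the upper quartile and without monocyte control replicates 3 and 4, and Slc39a8 also without monocyte control replicate 1 or 3. Both were also lost with the replicate block (1.05, adjusted p = 0.31, and 0.28, adjusted p = 0.539). Under the upper quartile Slc30a1 and Slc30a7 were called lower in macrophages (-0.76 and -0.81, adjusted p = 0.0127 and 0.00052). Slc30a5 just missed the threshold (0.83 ± 0.35, adjusted p = 0.0538), and was called by DESeq2 (adjusted p = 0.0243) and without monocyte control replicate 3 or 4 or both. It was also called higher by library size (1.25, adjusted p = 0.00432), with TMM on the highly counted genes (1.17, adjusted p = 0.00545), with either other filter and with the fit that was not robust. Mtf1 (0.41 ± 0.15 under TMM, not called) was called higher by library size (0.84, adjusted p = 5.44e-05) and with TMM on the highly counted genes (0.75, adjusted p = 0.000129). The Mt2 value, 4.34 ± 0.62, rests on counts that the 2 tables assigned by different rules and is not read further.

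On the common TMM scale of the 22 samples, the order of the 6 groups differed between members, and the place of the 14 d macrophages in it depended on the scaling. Mt1 was highest in macrophages at 3 d (399 ± 82.7 CPM, SD, n = 3) and in monocytes at 14 d (384 ± 71.3, n = 4), which overlapped. Both lay above control macrophages (267 ± 33.8, n = 4), whose range did not reach that of the 14 d macrophages (166 ± 57.2, n = 3). Monocytes at 3 d (106 ± 49.1, n = 4) overlapped the 14 d macrophages and the control monocytes (86.3 ± 41.4, n = 4). By library size alone, an order added after seeing the data, the 14 d macrophages (284 ± 92.8 CPM) overlapped both the monocytes at 14 d (307 ± 44.5) and the control macrophages (277 ± 22.9). Slc39a14 ran from control macrophages (57.1 ± 10.5 CPM) through macrophages at 3 d (50.9 ± 6.24) to monocytes at 14 d (43.8 ± 10.5), neighbours that overlapped, and then, after a gap, to macrophages at 14 d (21.5 ± 5.99). Monocytes at 3 d (11.2 ± 4.38) and control monocytes (7.94 ± 2.13) followed, and each overlapped the group before it. By library size the gap was gone, with 36.9 ± 9.63 CPM in macrophages and 35 ± 7.09 CPM in monocytes at 14 d. For Slc39a1 all 3 macrophage groups stood above all 3 monocyte groups, from 160.4 ± 14.5 CPM in control macrophages to 10.7 ± 2.79 CPM in control monocytes. For Slc39a10 the 14 d macrophages came last, at 17 ± 2.03 CPM, with no overlap with the monocytes at 3 d (27.1 ± 7.89), but by library size they stood at 29.2 ± 3.40 CPM and overlapped all 3 monocyte groups.

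The rest of the 2 transporter families was taken from lists fixed by family membership. In monocytes at 14 d, 1 of the 3 tested of 7 other ZnT genes and 0 of the 9 tested of 10 other ZIP genes were called against control by edgeR. By the same test 8.56% of all genes were called, 3.22% higher and 5.34% lower. Of the ZIP genes 3 had an unadjusted p under 0.05 and 1 was called, lower, by DESeq2. The median log2 fold changes of the ZnT and ZIP genes were 0.91 and -0.30, beside 0.09 for all genes. The ZnT gene called was Slc30a4, which encodes ZnT4, named here after its values were seen: it was higher by 3.63 ± 0.63 (adjusted p = 0.00199), at 5.75 to 16 CPM against 0.407 to 1.08 CPM. In monocytes at 3 d, 4 ZIP genes were called lower and 1 higher of 9, where 14.4% of all genes were called lower and 36.8% higher. The 4 were Slc39a11, Slc39a9, Slc39a7 and Slc39a13, with log2 fold changes of -0.88, -0.90, -0.88 and -0.75, against a median of -0.55 for highly counted genes. No ZIP gene was called lower there under the 3 other scalings, where 1.96% to 3.05% of all genes were. The 1 called higher, Slc39a12, was at 0.536 to 1.16 CPM against 0.0347 to 0.299 CPM in the controls and was named after its values were seen. In macrophages at 14 d, 6 of 10 other ZIP genes were called lower and 1 higher (median -0.71, beside 0.18 for all genes), where 22.9% of all genes were called lower and 39.4% higher. Among the 6 were Slc39a2 (-1.13 ± 0.36), Slc39a13 (-1.03 ± 0.14), Slc39a7 (-0.85 ± 0.17), Slc39a3 (-0.78 ± 0.16) and Slc39a9 (-0.65 ± 0.12). Under the 3 other scalings 1 or 2 ZIP genes were called lower and 2 or 3 higher. Of all genes, 6.14% to 10.6% were then called lower and 44.8% to 49.5% higher. Of 5 other ZnT genes tested there, 3 were called higher under all 4 scalings, where 39.4% to 49.5% of all genes were. They were Slc30a2 (3.36 to 5.86 CPM against 0 to 0.139 CPM in the controls), Slc30a4 (28.8 to 40.8 against 3.6 to 9.14 CPM) and Slc30a10 (1.02 to 1.52 against 0.0586 to 0.257 CPM), named after their values were seen. The floor of 3 counts was 0.176 to 0.208 CPM in the controls, so Slc30a2 lay below it there and Slc30a10 around it. In 2 controls Slc30a2 had no count. In macrophages at 3 d, 1 of 10 ZIP genes was called by edgeR and 3 by DESeq2, and edgeR called 1.27% of all genes there. The gene called by edgeR was Slc39a6, higher by 0.73 ± 0.17 (adjusted p = 0.0426), named after its values were seen.

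Genes tied to metal and oxidative stress were listed beside the transporters. Of 6 such genes 5 were called higher in monocytes at 14 d against control, where 3.22% of all genes were called higher, and their median log2 fold change was 1.64. They were Hmox1 (0.89 ± 0.15), which encodes the haem-degrading enzyme haem oxygenase 1, the glutathione synthesis gene Gclm (2.46 ± 0.41), the cystine transporter gene Slc7a11 (2.13 ± 0.32), Txnrd1 (1.14 ± 0.31) and Srxn1 (2.27 ± 0.39), all named after their values were seen, and 5 were called under each scaling. In macrophages at 14 d 2 of the 6 were called higher and 1 lower, beside 39.4% and 22.9% of all genes, and under the other scalings 3 or 4 were called higher and none lower. In macrophages at 3 d none of the 6 was called by edgeR or DESeq2 and 0 had an unadjusted p under 0.05, where edgeR called 1.27% of all genes. In monocytes at 3 d edgeR called 1 higher and 1 lower, as did DESeq2. By edgeR 2 of them had an unadjusted p under 0.05, and 36.8% of all genes were called higher and 14.4% lower. Of 8 glucocorticoid-induced genes, listed because glucocorticoids are known to induce metallothioneins, none was called in monocytes at 14 d against control by edgeR, though 5 had an unadjusted p under 0.05 and DESeq2 called 1, lower. In monocytes at 3 d, 4 of the 8 were called lower (median log2 fold change -1.03, beside 0.22 for all genes), where 14.4% of all genes were. At 14 d against 3 d, 4 were called higher (median 1.25, beside -0.26), where 12% of all genes were. Under the upper quartile 3 were called lower at 3 d and 3 higher at 14 d against 3 d, beside 3.05% and 2.49% of all genes. In macrophages at 3 d none was called by either tool and 0 had an unadjusted p under 0.05. Of 10 copper handling genes, 1 was called higher in monocytes at 14 d, and in macrophages at 14 d 3 were called higher and 4 lower, with none lower under the 3 other scalings. The shares of all genes at 14 d against control are those given for the metal stress list. Those in macrophages at 14 d under the other scalings are given with the ZIP genes.

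The genes whose log2 CPM followed Mt1 most closely over the 12 monocyte samples were Cd63 (Pearson r = 0.982), F7 (0.976) and C1qc (0.968), of 8081 genes compared. For Mt2 they were Otulin (0.937), Rab35 (0.930) and Rhoc (0.922). Over the 10 macrophage samples Mt1 was followed by Actb (0.956), Polr3d (0.951) and Ndufaf5 (0.949), and Mt2 by Gm45774 (0.996), with which it shares reads, Plp2 (0.974) and Acot11 (0.958), of 9649 genes. Mt1 and Mt2 correlated with each other at 0.889 and 0.934. The samples of a cell type share 3 groups, so these values describe the group pattern and carry no test.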

How the data were processed

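Libraries were made from oligo(dT)-enriched RNA of sorted cells with a kit that does not mark strand in its standard form, and were sequenced in paired ends. The authors deposited 1 table of raw read counts per gene for each cell type, with 12 and 10 samples. The submitters' processing notes name STAR 2.7.2c and 2.7.3a, featureCounts 1.6.3, DESeq2 1.26.0 and 1.28.1 and the GRCm38 build, and do not say which version made which table. Counts were tested as deposited with edgeR 4.0.16 (R 4.3.3): default low-count filter, TMM, robust quasi-likelihood fit, Benjamini-Hochberg adjustment over all genes tested (22353 in monocytes, 20944 in macrophages, 26692 in the joint fit), and calls at an adjusted p under 0.05 and a fold above 1.5. Each cell type was fitted alone over its 3 groups. The scripts were tested on simulated counts. Alternatives were DESeq2 1.42.0, 3 other scalings, 2 other filters, a fit that was not robust, fits of 2 groups, a replicate block, the adjusted p alone, each sample left out in turn and, added after seeing the data, monocyte control replicates 3 and 4 left out. Coordinates, exonic lengths and overlaps came from GENCODE M21, and promoter windows from RefSeq. In the tables, 181 monocyte and 75 macrophage identifiers had no GENCODE M21 match. The floor of 3 counts covers counting error only. All 10 genes were tested in every comparison, though not every value is given in words. The plot of changes holds all 10 in the 6 comparisons within a cell type. Of the other family genes, at most the 6 called ones with the highest mean CPM were to be named. For Mt1 and Mt2 the 3 genes most like each, above a mean log2 CPM of 3, are given. The genes and lists were chosen with earlier results of these data known.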

Additional observations from a re-analysis of the deposited data

Results flagged for a closer look

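Of 40 groups of 4 samples, 5 had 1 sample beyond Dixon's limit, where chance gives about 1 in 20. Mt1 in monocytes at 14 d had its highest sample at 423 CPM (replicate 3). In monocytes at 3 d the highest samples were Mt2 at 5.21 CPM, Slc30a1 at 7.52 CPM and Slc39a1 at 14 CPM, all replicate 3, and Mtf1 at 20.1 CPM, replicate 1.

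The change at 14 d differed between macrophages and monocytes for 6 genes under TMM, by the test of the difference itself. Over all genes 36.8% were called, 19.9% lower. The log2 values, macrophage minus monocyte, were -3.87 for Slc39a14, -2.84 for Mt1, -2.09 for Slc39a1, -1.73 for Slc39a10, -1.65 for Slc30a5 and -1.18 for Slc30a7. Slc30a5 and Slc30a7 were not called under any of the 3 other scalings.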

How the results depend on the processing

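Of 90 values (10 genes in 9 comparisons), 36 were called and none of these changed sign under any alternative, while 23 of the values that were not called did. Of the 36 calls, 17 were kept under every alternative. Both totals include the Mt2 value of the control comparison, which is not read further. The number of the 10 genes called moved as follows. In monocytes at 3 d it was 3, 0 with genes above a mean log2 CPM of 1 only and 1 with only those 2 groups fitted. At 14 d against 3 d it was 4, and 2 with that filter and 2 with TMM on genes above log2 CPM 5. In macrophages at 3 d it was 1, 2 with DESeq2, 0 with no filter and 0 with the replicate block. At 14 d against control it was 5, 3 with TMM on genes above log2 CPM 5 and 8 with no filter. At 14 d against 3 d it was 8, and 5 with DESeq2, upper quartile scaling, genes above a mean log2 CPM of 1 only or the 2 groups alone, and 3 with library size or TMM on genes above log2 CPM 5. For the difference between cell types at 3 d it was 0, and 1 with DESeq2, with no filter or without monocyte control replicates 3 and 4. The cause of these moves was not tested.

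Leaving out each sample in turn gave 1 to 4 genes called in monocytes at 3 d, 2 to 3 at 14 d and 3 to 5 at 14 d against 3 d. In macrophages it gave 0 to 2, 5 to 8 and 6 to 8. For the differences between cell types it gave 0 to 2 at 3 d and 6 to 7 at 14 d. For the controls it gave 5 to 7 with Mt2 counted among the genes, although its value there is not read further.

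The labels give same-numbered samples only a number in common. Their deviations correlated at 0.0892 to 0.521 (mean 0.28) between monocyte control and 14 d samples and at -0.17 to 0.228 in the other pairs of groups. Differently numbered monocyte control and 14 d samples correlated at -0.456 to 0.290 (mean -0.093). Whether same-numbered samples shared a preparation was not tested. With the replicate block, the Mt2 call in macrophages at 3 d was lost (1.30, adjusted p = 0.167) and Mt2 was called in monocytes at 14 d against 3 d (1.81, adjusted p = 0.0119). At 3 d in monocytes Slc30a1 was lost (-0.69, adjusted p = 0.055), and at 14 d in macrophages Slc30a5 was called (-0.60, adjusted p = 0.00691). For the difference at 14 d Slc30a5 was lost (-1.69, adjusted p = 0.0542) and Mt2 was called (-1.89, adjusted p = 0.0396), and for the controls Slc39a8 and Slc39a10 were lost. Counts of calls with the block were 2, 3 and 5 in monocytes and 0, 6 and 8 in macrophages. Depth limits mainly Slc39a8 and the monocyte Mt2.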
